A study of Homo sapiens with 18 samples.

Results

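The U5 small nuclear ribonucleoprotein (snRNP) was followed here through the 8 genes that encode its particle-specific proteins, SNRNP200, PRPF8, EFTUD2, SNRNP40, PRPF6, DDX23, TXNL4A and CD2BP2. The genes were taken by symbol from the 38055 genes of the whole transcriptome table, and all 8 were found. SNRNP200 is among the genes that the study used as references for RT-qPCR, together with HPRT1 and ZMYM4, so its change with cell density was set against that of its partner proteins and of these other control genes. Wild-type HCT116 cells, an epithelial line from a human colorectal carcinoma, were grown in serum-supplemented McCoy's 5A medium and harvested at rising density. The groups compared were day 3, at 50% confluency, and day 5, at 250% confluency, with 3 biological replicates each and no treatment. Day and density rise together in this design and cannot be told apart. Day 7 cells and small RNA libraries were not analysed here, and HCT116 is a single tumour line.

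The spliceosome removes introns from pre-mRNA, and the U5 snRNP is the component that holds the exons in place during both steps of the reaction. It joins the U4/U6 snRNP as the U4/U6.U5 tri-snRNP before it enters the spliceosome and stays there after U1 and U4 have left. Its proteins include a scaffold (PRPF8), a helicase that unwinds U4 from U6 (SNRNP200), a GTPase that controls this helicase (EFTUD2) and several smaller factors, which are required in all cell types.

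The libraries held between 27470978 and 56689369 reads on genes. Day 3 contained both the shallowest and the deepest library, whereas the day 5 libraries lay between 31403756 and 33661896. Of the epithelial markers, EPCAM was present at 6932 to 7403 normalised reads in every library, and KRT8, KRT18, KRT19, CDH1 and CLDN4 were present in all libraries and higher on day 5. The colon transcription factor CDX2 was present at 208 to 323 normalised reads, whereas VIL1, CDH17 and LGALS4, markers of differentiated colon epithelium, stayed at or below 13.5. PTPRC, CD3E, CDH5 and DCN, markers of immune, endothelial and fibroblast cells, stayed at or below 4.33, COL1A2 was at 9.76 to 26.9 and COL1A1 at 483 to 1156. A normalised read is a gene's read count divided by a size factor of its library. Fold changes are differences of log2(normalised reads + 1), day 5 minus day 3, tested with limma across all genes with a Benjamini-Hochberg threshold of 0.05.

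At day 5, 11450 of the 20129 genes tested (56.9%) differed from day 3, with 5900 (29.3%) higher and 5550 (27.6%) lower. Among the U5 genes, 4 of 8 were higher (SNRNP200, PRPF8, PRPF6 and EFTUD2), 2 were lower (SNRNP40 and TXNL4A) and 2 did not pass the test (DDX23 and CD2BP2). The libraries of the 2 days did not overlap for 7 of 8 genes, against 65% of all genes tested. The genes of the particle did not share a direction. In bulk RNA, a lower number of cells of one kind and less RNA per cell cannot be told apart.

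**Figure D1:**
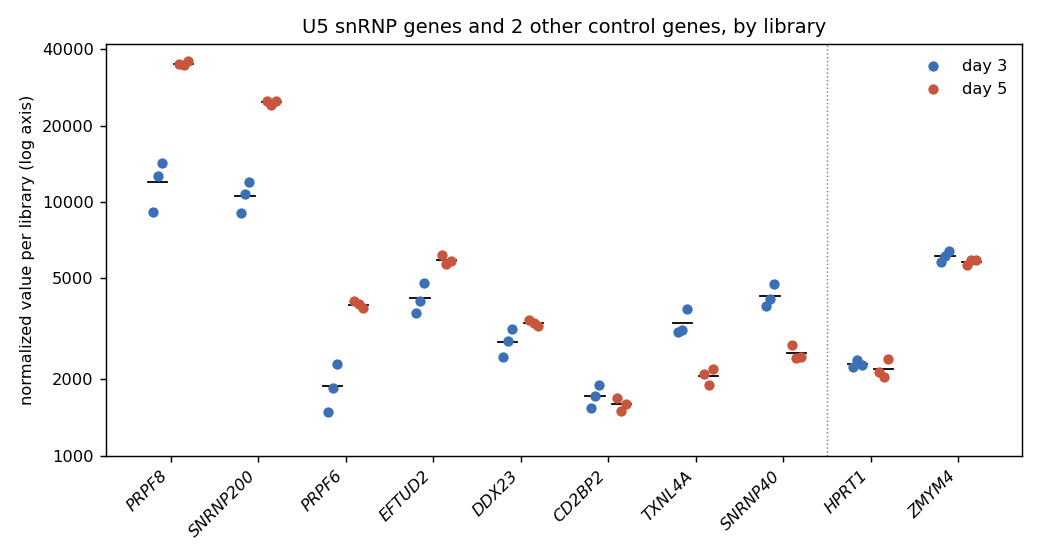
Normalised reads per library, on a log axis, of the 8 U5 snRNP genes and, right of the dotted line, the control genes HPRT1 and ZMYM4. Points are the 3 libraries of day 3 (blue) and of day 5 (red) and short lines are means, with SNRNP200, PRPF8, EFTUD2 and PRPF6 higher on day 5, SNRNP40 and TXNL4A lower, and CD2BP2, HPRT1 and ZMYM4 overlapping between the days.

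SNRNP200 encodes the RNA helicase that separates U4 from U6 during activation of the spliceosome. The gene lies on the minus strand of chromosome 2 (chr2:96274338-96321271, GRCh38, 45 exons). It measured 9057, 10747 and 12018 normalised reads in the 3 libraries of day 3 and 25089, 24253 and 25132 in those of day 5. Every day 5 library held more than any day 3 library, and the day 5 libraries were close to each other. SNRNP200 rose 2.36-fold, with a log2 fold change of 1.24 (SE 0.12, 95% interval 0.95 to 1.53, adjusted p in limma = 0.000461). Its change exceeded that of 93.6% of the genes tested.

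PRPF8 encodes the largest U5 protein, the scaffold at the catalytic core of the spliceosome (chr17:1650629-1684867, minus strand, 43 exons). It measured 9135, 12620 and 14296 normalised reads on day 3 and 35096, 34598 and 35866 on day 5, which left a wide gap between the days. PRPF8 rose 2.98-fold, the largest rise among the U5 genes (log2 fold change 1.57, SE 0.17, 95% interval 1.15 to 1.99, adjusted p in limma = 0.000678). PRPF6, which bridges U5 and U4/U6 in the tri-snRNP (chr20:63981132-64033100, plus strand, 21 exons), had 1488, 1842 and 2305 normalised reads on day 3. On day 5 it had 4057, 3944 and 3817, all above the day 3 libraries. It rose 2.13-fold, by 1.09 on the log2 scale (SE 0.16, adjusted p in limma = 0.00217).

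EFTUD2, the GTPase of the particle and a relative of the ribosomal translocase EEF2, lies on the minus strand of chromosome 17 (chr17:44849948-44899445, 28 exons). Its day 3 libraries held 3646, 4081 and 4782 normalised reads and its day 5 libraries 6166, 5683 and 5830. The groups were separate, but the step was smaller than for PRPF8, SNRNP200 or PRPF6. EFTUD2 rose 1.42-fold (log2 fold change 0.51, SE 0.12, 95% interval 0.22 to 0.80, adjusted p in limma = 0.0119). Without the filter on low values, with the 3 RT-qPCR control genes as the scale, or after correction for GC content and transcript length, this call was lost (adjusted p in limma = 0.0549, 0.225 and 0.165).

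DDX23 encodes the helicase that displaces U1 from the 5′ splice site (chr12:48829756-48852842, minus strand, 17 exons). It measured 2458, 2818 and 3170 normalised reads on day 3 and 3426, 3339 and 3241 on day 5. The libraries did not overlap, but the highest of day 3 lay just below the lowest of day 5. The log2 fold change of 0.25 (SE 0.11, 95% interval -0.020 to 0.52) did not pass the test (adjusted p in limma = 0.0994). It passed when day 3 replicate 3 was left out, with a log2 fold change of 0.34 (adjusted p in limma = 0.0276). It also passed when the libraries were scaled to their totals or when the recovered reads were tested with edgeR or DESeq2 (adjusted p = 0.0178, 0.0110 and 0.0254). With the 3 RT-qPCR control genes as the scale, its log2 fold change turned to -0.11 (adjusted p in limma = 0.307). Corrected for GC content and transcript length, it was -0.029 (adjusted p in limma = 0.786).

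CD2BP2 binds the U5 snRNP during its assembly and is absent from the tri-snRNP (chr16:30350773-30355308, minus strand, 7 exons). It measured 1538, 1720 and 1898 normalised reads on day 3 and 1690, 1503 and 1601 on day 5, and it was the U5 gene whose groups overlapped. Its log2 fold change was -0.10 (SE 0.11, 95% interval -0.36 to 0.16, adjusted p in limma = 0.443). After the correction for GC content and length it was -0.59 (adjusted p in limma = 0.00191).

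The U5 genes that fell were SNRNP40 and TXNL4A. SNRNP40, a WD40-repeat protein (chr1:31259568-31296788, minus strand, 10 exons), measured 3880, 4140 and 4733 normalised reads on day 3. It had 2732, 2423 and 2442 on day 5, where each library lay below all of day 3. SNRNP40 was 1.68-fold lower on day 5 (log2 fold change -0.74, SE 0.11, adjusted p in limma = 0.00175). A processed pseudogene inside the locus on the same strand had a mean of only 44.2 normalised reads. TXNL4A, a small thioredoxin-fold protein that contacts PRPF8 (chr18:79970813-80033949, minus strand, 3 exons in the canonical transcript), had 3061, 3127 and 3769 normalised reads on day 3 and 2096, 1893 and 2193 on day 5. It was 1.61-fold lower (log2 fold change -0.68, SE 0.11, 95% interval -0.96 to -0.40, adjusted p in limma = 0.00331).

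**Figure D2:**
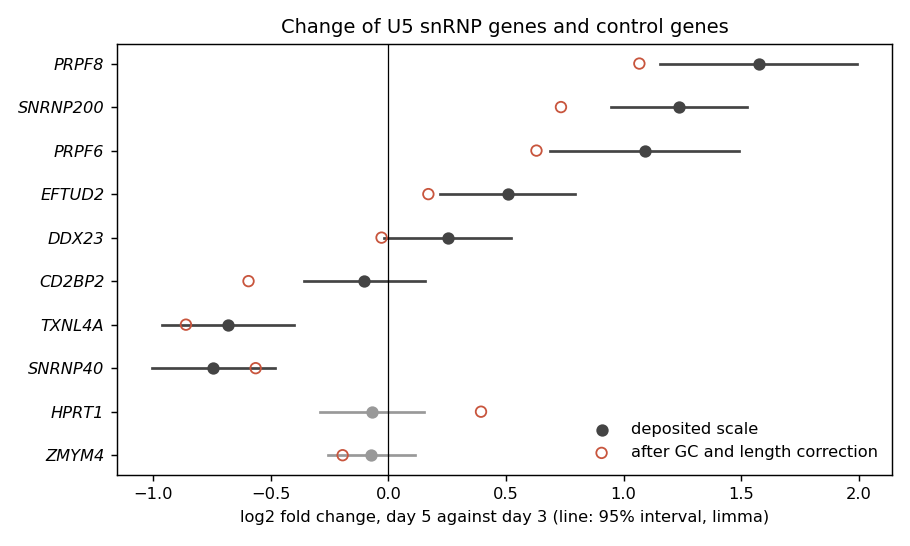
Log2 fold change, day 5 minus day 3, of the 8 U5 snRNP genes (black) and of the control genes HPRT1 and ZMYM4 (grey), as filled points with 95% intervals from limma, and as open circles after correction for GC content and transcript length. PRPF8 (1.57) and SNRNP200 (1.24) lie farthest to the right and SNRNP40 (-0.74) farthest to the left. The intervals of DDX23, CD2BP2, HPRT1 and ZMYM4 include 0. The corrected values of PRPF8, SNRNP200, PRPF6, EFTUD2, DDX23 and CD2BP2 (-0.59) lie left of their intervals. That of HPRT1 lies right of its interval, and those of SNRNP40, TXNL4A and ZMYM4 lie within theirs.

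The other RT-qPCR control genes did not pass the test. HPRT1, a purine salvage enzyme, measured 2239, 2372 and 2279 normalised reads on day 3 and 2133, 2042 and 2406 on day 5. Its log2 fold change was -0.07 (95% interval -0.29 to 0.15, adjusted p in limma = 0.542), and its groups overlapped. ZMYM4, a zinc finger protein, measured 5822, 6152 and 6392 on day 3 and 5647, 5914 and 5892 on day 5. Its log2 fold change was also -0.07 (95% interval -0.26 to 0.11, adjusted p in limma = 0.445). After the correction for GC content and length HPRT1 was higher on day 5, with a log2 fold change of 0.39 (adjusted p in limma = 0.00917).

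The ratio of 2 genes within a library does not depend on how libraries are scaled to each other. It is not corrected for differences in GC content and transcript length between the 2 genes. HPRT1 was 24.7, 22.1 and 19.0% of SNRNP200 in the day 3 libraries and 8.50, 8.42 and 9.57% in the day 5 libraries, which is 2.47-fold lower. ZMYM4 relative to SNRNP200 was 2.48-fold lower. After the correction for GC content and length, the log2 fold change was 0.73 for SNRNP200, 0.39 for HPRT1 and -0.19 for ZMYM4. These percentages are not per length and serve only to compare the days. Among the partner proteins, PRPF8 stood at 101, 117 and 119% of SNRNP200 on day 3 and at 140, 143 and 143% on day 5 (log2 change 0.34, SE 0.08). PRPF6 stayed nearest to a fixed ratio, with 16.4, 17.1 and 19.2% on day 3 and 16.2, 16.3 and 15.2% on day 5. The log2 change of PRPF6 was -0.15 (SE 0.07), and with SNRNP200 as the scale in limma its 95% interval was -0.40 to 0.11 (adjusted p in limma = 0.226). Without day 3 replicate 3 the log2 change of the PRPF6 ratio was -0.081.

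The remaining partners separated from SNRNP200 in the other direction. EFTUD2 relative to SNRNP200 was 1.66-fold lower on day 5, DDX23 1.98-fold lower and CD2BP2 2.53-fold lower. TXNL4A went from 33.8, 29.1 and 31.4% of SNRNP200 to 8.36, 7.80 and 8.73%. SNRNP40, with the widest divergence before a correction for GC content and length, went from 42.8, 38.5 and 39.4% to 10.9, 9.99 and 9.72%. It was 3.95-fold lower relative to SNRNP200 (log2 change -1.98, SE 0.07). After that correction the log2 fold change was -0.56 for SNRNP40, -0.86 for TXNL4A and -0.59 for CD2BP2, against 0.73 for SNRNP200. For all 7 partners and both control genes the 2 days did not overlap. The share of all genes without overlap in this ratio was not computed. With SNRNP200 as the scale, the median log2 fold change over all genes was -1.23. Each exact permutation test of 3 libraries against 3 gave a two-sided p of 0.1, which is the smallest this test can give and stays at 0.1 after adjustment. In limma with SNRNP200 as the scale, the 6 partners other than PRPF6 passed, with adjusted p from 0.0214 for PRPF8 to 2.08e-05 for SNRNP40, as did HPRT1 (0.000151) and ZMYM4 (6.91e-05). On that scale 84.6% of all genes tested passed.

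**Figure D3:**
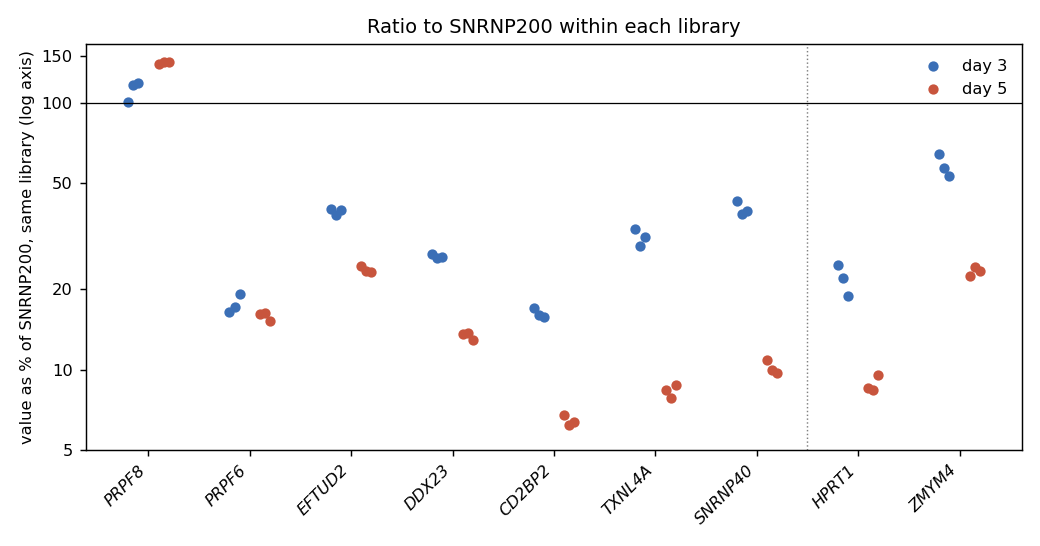
Each partner protein and, right of the dotted line, each control gene as a percentage of SNRNP200 in the same library, on a log axis, with day 3 libraries in blue and day 5 libraries in red and a line at 100%. PRPF8 lies higher on day 5, PRPF6 stays nearest to its day 3 ratio, and the other genes lie lower on day 5, SNRNP40 by the most (3.95-fold).

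Levels of different genes were compared as normalised reads per kb of the canonical transcript. On day 3, SNRNP40 was highest with a mean of 2632 per kb, above PRPF8 with 1651 and SNRNP200 with 1475, and neighbours from PRPF8 to SNRNP200 overlapped. EFTUD2 (964), TXNL4A (956), DDX23 (865), PRPF6 (616) and CD2BP2 (511) followed, each overlapping with the next. On day 5 the order was PRPF8 (4833 per kb), SNRNP200 (3451), SNRNP40 (1568), EFTUD2 (1362), PRPF6 (1293), DDX23 (1024), TXNL4A (594) and CD2BP2 (475). Only EFTUD2 and PRPF6 overlapped there. The gap between the highest and the lowest gene widened from 5.15-fold to 10.2-fold. SNRNP200 and PRPF8 together made up 32.3% of the summed level of the 8 genes on day 3 and 56.7% on day 5. Levels per kb are not corrected for how the change between the days moved with GC content and length. With that correction the log2 fold change was 0.73 for SNRNP200 and 1.07 for PRPF8, against 1.24 and 1.57 without it. The isoform that the cells express was not measured, which bears most on TXNL4A, whose canonical transcript has few exons and 3472 bases.

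The replicates of day 3 differed more than those of day 5. The coefficient of variation of the U5 genes had a median of 13.2% on day 3 and 3.63% on day 5, against 7.67% and 3.97% for the 6508 genes with a mean of at least 1000 normalised reads. PRPF8 (21.9%) and PRPF6 (21.8%) varied most on day 3. In all 8 U5 genes, day 3 replicate 1 was the lowest and replicate 3 the highest of the day, an order found in 32.9% of all genes tested. The summed normalised reads of day 3 replicates 1, 2 and 3 had the same order (3.40e+07, 3.50e+07 and 3.89e+07). The part of this scaling in the order was not tested. Leaving out day 3 replicate 1 or replicate 3 moved the log2 fold change of SNRNP200 to 1.13 or 1.33, and its call remained.

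The change between the days moved with transcript length and with GC content over the whole transcriptome. Over 4 equal groups of genes from the shortest to the longest transcripts, the median log2 fold change was -0.35, -0.01, 0.17 and 0.25, and over 4 groups from the lowest to the highest GC content it was -0.36, -0.15, 0.13 and 0.52. PRPF8 (7280 bases) and SNRNP200 (7194 bases), which rose most, are the longest U5 transcripts, and SNRNP40 (1615 bases), which fell most, is the shortest. Across the 8 genes, the Spearman correlation of the log2 fold change with length was 0.67 and that with GC content 0.45, given as a description since the genes share the same 6 libraries. After each library was corrected for both properties, SNRNP200 remained higher with a log2 fold change of 0.73 (adjusted p in limma = 0.00178). The corrected values were 1.07 for PRPF8 and 0.63 for PRPF6, which passed, and 0.17 for EFTUD2 and -0.029 for DDX23, which did not. SNRNP40 was at -0.56 and TXNL4A at -0.86, both still lower. With CD2BP2, 3 of 8 U5 genes were then higher and 3 lower, against 21.7% and 28.2% of all genes, and their median log2 fold change went from 0.38 to 0.070. The part of length and GC content in the differences was not tested beyond this correction.

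**Figure D4:**
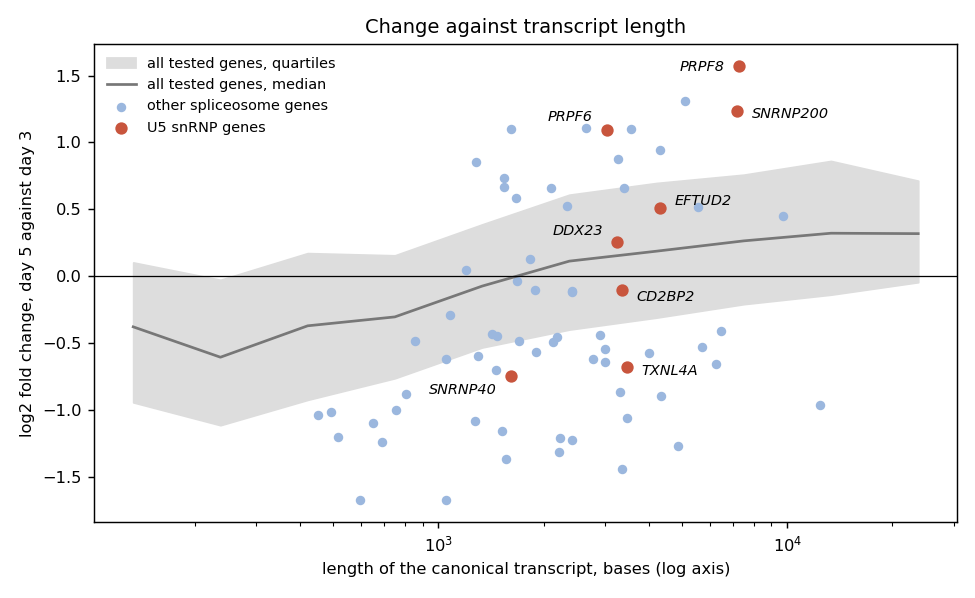
Log2 fold change, day 5 minus day 3, against the length of the canonical transcript in bases on a log axis. The line is the median and the grey band the quartiles of all genes tested per length bin. Other spliceosome genes and genes of U5 assembly factors are in blue, and the U5 snRNP genes in red with their names. PRPF8, SNRNP200 and PRPF6 lie above the band, SNRNP40 and TXNL4A lie below it, and DDX23, EFTUD2 and CD2BP2 lie within it.

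Of the other protein genes of the spliceosome and of U5 assembly, most were lower on day 5. They came from 6 lists with 61 genes in all, which include the 8 U5 assembly factors described further below. Of the 61 genes, 15 were higher, 37 lower and 9 did not pass the test. Their median log2 fold change was -0.53, against 0.01 over all genes tested and 0.38 over the U5 genes. After the correction for GC content and length, 10 were higher and 40 lower, with a median of -0.48 against 0.070 over the U5 genes. The Sm ring binds U5 snRNA as well as the other spliceosomal snRNAs. It had 6 of 7 genes lower and none higher, against 27.6% and 29.3% of all genes tested. Its lowest were SNRPG at -1.67 (SE 0.13) and SNRPE at -1.37 (SE 0.09). Of the 15 U4/U6 and tri-snRNP proteins, 12 were lower, against 27.6% of all genes tested. Those that fell most were LSM3 (-1.44, SE 0.10) and LSM5 (-1.32, SE 0.09), subunits of the Lsm ring. Only SART1 of this list, which recruits the tri-snRNP, was higher, at 1.10 (SE 0.16).

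The U1 and U2 snRNP proteins split, with 7 higher and 8 lower of 15, against 29.3% and 27.6% of all genes tested. The SF3a subunits SF3A1 (1.31, SE 0.15) and SF3A2 (1.10, SE 0.12) rose, whereas SF3A3 (-0.62, SE 0.10) fell. The SF3b subunits also split. PHF5A (-1.68, SE 0.12), SF3B5 (-1.24, SE 0.16), SF3B6 (-1.10, SE 0.12) and SF3B1 (-0.41, SE 0.07) fell. SF3B2 (0.88, SE 0.14), SF3B4 (0.66, SE 0.19) and SF3B3 (0.45, SE 0.11) rose. SF3B3 lost its call after the correction (0.0031, adjusted p in limma = 0.978). The Prp19 complex, which acts during activation, had 6 of 9 genes lower, among them CWC15 (-1.16, SE 0.11) and BCAS2 (-1.09, SE 0.07), and 2 higher, XAB2 (1.11, SE 0.19) and PRPF19 (0.53, SE 0.18). PRPF19 lost its call after the correction (0.21, adjusted p in limma = 0.287). Of the other spliceosomal helicases, 4 of 7 rose, among them DHX38 (0.94, SE 0.11) and DHX16 (0.66, SE 0.11). DHX15 (-0.55, SE 0.08) and DDX46 (-0.53, SE 0.08) fell. After the correction 2 of 7 helicases were higher, against 21.7% of all genes, with a median of 0.17 in place of 0.52. DHX16 lost its call (0.19, adjusted p in limma = 0.0982).

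**Figure D5:**
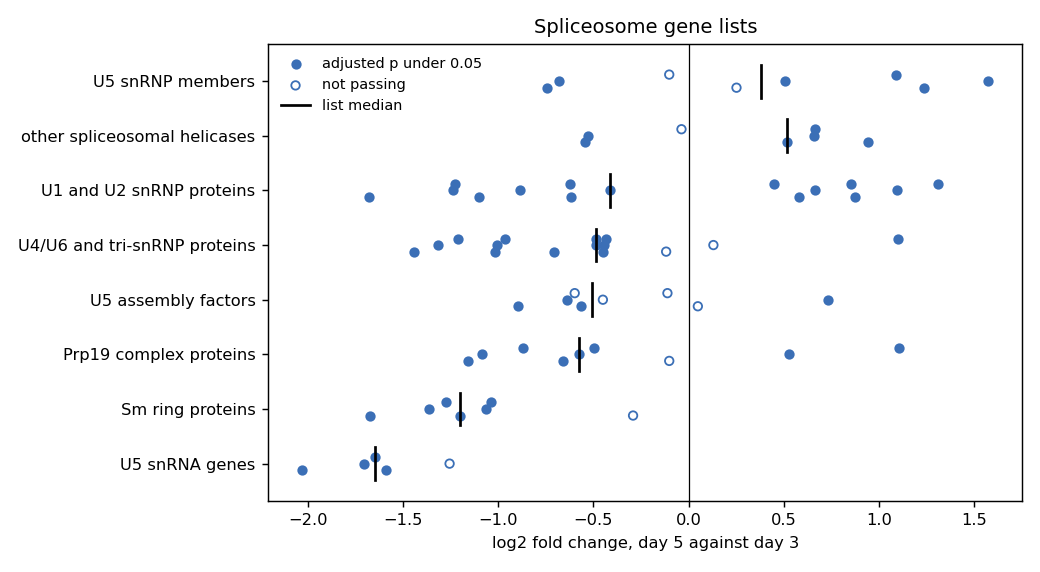
Log2 fold change, day 5 minus day 3, of each gene in the U5 snRNP and in the other spliceosome, U5 assembly factor and U5 snRNA lists. Points are filled where the adjusted p in limma passed 0.05 and open where it did not, with a black line at each list's median. The medians of the U5 genes (0.38) and of the other helicases (0.52) lie above 0, and the Sm ring (median -1.20) lies lowest of the protein lists.

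Of 8 factors that assemble the U5 snRNP, 3 were lower, 1 was higher and 4 did not pass the test. Over all genes tested, 27.6% were lower and 29.3% higher. RPAP3, a cochaperone subunit, was at -0.90 (SE 0.07) and ECD at -0.64 (SE 0.09), while RUVBL2, an AAA ATPase, was higher at 0.73 (SE 0.14). After the correction 6 of 8 were lower, against 28.2% of all genes. The genes for U5 snRNA itself were lower in 4 of 5 cases, with RNU5F-1 at -2.03 (SE 0.21) and RNU5A-1 at -1.70 (SE 0.20). These values rest on short, near-identical gene copies with at most 250.4 normalised reads in any library and are uncertain. Relatives of U5 proteins outside the U5 snRNP were EEF2, which rose by 1.44 (SE 0.18), ASCC3, a helicase related to SNRNP200, which fell by 0.59 (SE 0.07), and TXNL4B, with -0.22 (SE 0.13), which did not pass. Of 6 proliferation genes, 2 were higher, MCM2 (0.61, SE 0.19) and MKI67 (0.52, SE 0.08), and 4 were lower, among them PCNA (-1.37, SE 0.11) and CCNB1 (-1.15, SE 0.09). After the correction none was higher, with MCM2 at 0.095 and MKI67 at 0.0052 (adjusted p in limma = 0.635 and 0.953), and the part of these genes in the differences was not tested.

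The 5 genes whose log2 values followed SNRNP200 most closely over the 6 libraries were AMOTL1, SBK1, LONP1, SAMD1 and SEPTIN9, with a Pearson r between 0.9997 and 0.9998. Such values are common where the 2 days differ, and 4801 genes (23.9%) had an r above 0.9. PRPF8 (r = 0.998), PRPF6 (0.989), EFTUD2 (0.966) and DDX23 (0.863) followed SNRNP200. CD2BP2 (-0.29), TXNL4A (-0.88) and SNRNP40 (-0.91) did not. The points share the same libraries, and the r is a description.

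The sequences upstream of the RefSeq start sites were compared because SNRNP200, PRPF8 and PRPF6 rose while SNRNP40 and TXNL4A fell. TXNL4A and EFTUD2, which also changed, have 2 start sites each and are not printed. All 8 genes had an entry, with 11 start sites, and windows of 250 bases upstream were searched on both strands. The 150 bases next to the start are printed 5′ to 3′ on the strand of the gene, with matches on either strand to an SP box, a CCAAT box, an ETS core, an E-box or a hypoxia response core in capitals (GRCh38.p14). The stretches are chr2:96305547-96305696, minus strand, for SNRNP200, chr17:1684868-1685017, minus strand, for PRPF8, chr20:63980982-63981131, plus strand, for PRPF6 and chr1:31296789-31296938, minus strand, for SNRNP40. For SNRNP200 the stretch lies inside the locus given above, because that locus comes from GENCODE and the start site from RefSeq.
SNRNP200: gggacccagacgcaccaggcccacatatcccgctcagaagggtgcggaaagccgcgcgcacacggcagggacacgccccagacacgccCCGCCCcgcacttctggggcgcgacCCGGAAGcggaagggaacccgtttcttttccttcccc
PRPF8: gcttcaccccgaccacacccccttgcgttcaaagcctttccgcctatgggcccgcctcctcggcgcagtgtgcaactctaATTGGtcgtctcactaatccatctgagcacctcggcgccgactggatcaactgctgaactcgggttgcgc
PRPF6: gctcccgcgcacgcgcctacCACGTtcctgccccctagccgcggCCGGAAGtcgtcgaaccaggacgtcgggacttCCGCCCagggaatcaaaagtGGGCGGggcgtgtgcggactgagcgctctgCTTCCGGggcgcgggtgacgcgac
SNRNP40: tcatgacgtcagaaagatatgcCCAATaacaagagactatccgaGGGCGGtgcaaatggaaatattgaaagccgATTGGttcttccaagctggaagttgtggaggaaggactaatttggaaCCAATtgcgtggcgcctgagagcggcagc

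The SP box GGGCGG was found in 8 of the 11 windows of U5 genes, which belong to 7 genes, and in 42.6% of the 35116 windows of all genes. Both windows of EFTUD2 overlap each other. TXNL4A held 7 matches at 1 of its start sites, SNRNP200, PRPF6 and SNRNP40 held 2 each, and PRPF8 was the gene without one. The CCAAT box (letters CCAAT) was found in 4 of 11 windows (4 genes) and 32.0% of all windows. It had 4 matches in SNRNP40, 2 in DDX23, 1 in PRPF8 and 1 in CD2BP2. The ETS core CCGGAAG was found in 3 of 11 windows (3 genes) and 8.52% of all windows. It had 1 match in SNRNP200, 2 in PRPF6 and 2 in CD2BP2. The E-box CACGTG was found in 3 of 11 windows (2 genes) and 6.34% of all windows. The hypoxia response core ACGTG, which lies within the E-box, was found in 6 of 11 windows (4 genes) and 18.5% of all windows. The TATA box TATAAA was found in none of the 11 windows and in 10.7% of all windows. The GC content of the U5 windows ranged from 55.2 to 74.4%, against a median of 58% over all windows. None of these motifs was shared by SNRNP200, PRPF8 and PRPF6 in these windows.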

How the data were processed

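Total RNA of HCT116 cells was depleted of rRNA and sequenced as strand-specific libraries. Per the study's methods, reads were trimmed and mapped to ENSEMBL v99 (hg38) in CLC Genomics Workbench, and the submitters' processing notes name bcl2fastq, FastQC 0.11.8 and MultiQC 1.7. The deposited signal values, made by the authors, are gene read counts divided by 1 size factor per library. All values (100%) came out as whole reads within a tolerance of 0.01, which gave the depth per library (27470978 to 56689369 reads on genes). Whether intronic reads were counted is not given in the sources used here. The table also holds the authors' own fold changes and p-values, which were not used.

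Values were transformed to log2(value + 1), and genes with at least 10 in at least 3 of 6 libraries (20129) were tested with limma 3.58.1 in R 4.3.3, without covariates, two-sided, with Benjamini-Hochberg adjustment. Alternatives were library totals, division by SNRNP200 or by the geometric mean of SNRNP200, HPRT1 and ZMYM4, a pseudocount of 0.1, no filter, the replicate number as a block, leaving out each library, and edgeR 4.0.16 and DESeq2 1.42.0 on the recovered reads. A loess correction of each library for GC content and canonical transcript length (GENCODE 44, span 0.5, 19288 genes) was added after seeing the data. Scripts were tested on simulated data. Promoter sequences are from RefSeq.

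The U5 genes and the other lists were chosen with earlier results of these data known. All U5 genes were named. Each other list contributed its 2 strongest called genes in either direction. Also named were all genes of lists of 3 or fewer, the other SF3a and SF3b subunits, and the 5 genes most correlated with SNRNP200. The labels call the replicates biological, and the limma p-values set the difference between the days against the spread between replicates of a day.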

Additional observations from a re-analysis of the deposited data

How the results depend on the processing

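The number of genes differing between the days stayed within 1.5 times of 11450 under every alternative except division by SNRNP200, which gave 17301, with 2.84% of them higher on day 5 and a median log2 fold change over all genes of -1.23. Leaving out 1 library gave 9811 to 11380 genes. Division by the 3 control genes gave 12252 genes, 27.2% of them higher, with a median shift of -0.36, and library totals gave 11366, 56.3% higher. The correction for GC content and length gave 9629, 43.5% higher, and 51.5% were higher in the reported test.

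Divided by SNRNP200, log2 fold changes turned to -0.73 for EFTUD2, -0.98 for DDX23 and -0.15 for PRPF6, and calls were made for CD2BP2 (-1.34), HPRT1 (-1.30) and ZMYM4 (-1.31). SNRNP200 itself is then constant by construction. Divided by the 3 control genes, DDX23 was at -0.11, EFTUD2 lost its call (0.14), and CD2BP2 (-0.47), HPRT1 (-0.43) and ZMYM4 (-0.44) were called lower. With the GC and length correction, DDX23 was at -0.029, HPRT1 was called higher (0.39), CD2BP2 was called lower (-0.59) and EFTUD2 lost its call (0.17), as it did without the filter (0.51). DDX23 was called higher with library totals (0.32), edgeR (0.24) and DESeq2 (0.25), and its values without 1 library ranged from 0.16 to 0.34. Either division moves all genes of a library alike, by the level of the genes divided by, which include SNRNP200. The cause of the other changes was not tested.

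The replicate numbers were shared between the days, but same-numbered libraries did not deviate together (correlations of -0.01, 0.03 and 0.02), and not every library correlated best with its own number. With the replicate block 10533 genes differed, and no call on a U5 gene changed. For the ratios to SNRNP200, the exact paired test gave 0.25, the smallest possible with 3 pairs.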
